A study of Mus musculus with 2756 samples.

Results

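The ribosomal protein genes are the genes of the deposited count table whose symbol is Rpl or Rps followed by a digit, or Rplp0, Rplp1, Rplp2 or Rpsa, without the Rps6k kinases and without symbols holding "-ps". The rule found 88 of the 16441 genes in the table. They were 43 genes of the large subunit, 31 of the small subunit, 3 of the stalk of the large subunit, 5 paralogs, 5 extra copies and Rps19bp1, which encodes a binding partner of a ribosomal protein and is not itself a ribosomal protein. The rule reads names only, but the gene group itself was chosen with earlier results of these data known. Embryonic mouse cortex had received FlashTag, a dye taken up by cells in division along the ventricle, on embryonic day 12, 13, 14 or 15 (E12 to E15), and the brightest dye-positive cells of the putative primary somatosensory cortex were sorted 1, 24 or 96 h later. Full-length cDNA of 2756 single cells was sequenced. Genotype and strain are not given in the sources used here, and every cell came from the same dye injection scheme, so that groups differ by injection day, collection time and the authors' cluster.

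The authors' clusters were pooled into classes by the prefix of the cluster label: apical progenitors (AP), which divide at the ventricular surface, basal progenitors (BP), which divide away from it, neurons of the 1-day type (N1d), neurons of the 4-day type (N4d), interneurons (IN) and astrocytes (Astro). Counts were summed over the cells of a class in each condition. The groups with all 4 injection days were AP collected 1 h after labelling, the AP, BP and N1d cells of 24 h, and the N4d and IN cells of 96 h. The labels name no animal, so each injection day is 1 sample of a group, and a p-value here reflects no more than the scatter of such sums. That scatter was estimated from all sums of a fit (12 or 8), with information shared across genes. In fits of 12 sums it can include a class outside the comparison. The classes are clusters of the same cells, and whether ribosomal protein genes entered that clustering is not given in the sources used here.

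Ribosomal proteins assemble with ribosomal RNA in the nucleolus into a small subunit, which reads the messenger RNA, and a large subunit, which joins the amino acids. Most vertebrate ribosomal protein genes share a start site inside a stretch of pyrimidines, so that their messengers begin with a 5′ terminal oligopyrimidine (TOP) tract through which the TOR kinase adjusts their translation. Dividing neural progenitors are known for high ribosome production, which declines when they become neurons.

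Promoter sequences were available for 64 of the 88 genes (RefSeq, GRCm38.p6). A run of at least 8 bases that are all C or T, beginning with C and starting within 10 bases of the annotated start, was searched on the gene's own strand. It was present in 21 of these 64 promoters (32.8%), in 20 of 57 promoters of subunit and stalk genes (35.1%) and in 8.03% of the promoters of all 27025 genes in the table. The genes below are members with an entry on which the class differences described later turn; Rps14 and Rplp1, which are described as well, are named without a sequence. Each window runs from 40 bases before the annotated start through the first 20 bases of the transcript. Capitals mark the run as counted from its first C within those 10 bases, so a pyrimidine stretch can begin before the capitals, as in Rpl7a. In Rps27l such a stretch begins earlier too, and the part counted is 7 bases long, short of 8. A window without capitals holds no such run at these positions. Only the first listed start of each gene was read, and other starts were not searched. The absence of a run therefore does not show that a messenger lacks a TOP tract. Both kinds of window occur among the genes that were lower in N1d neurons and among those that were lower in N4d neurons.

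Rpl14 (chr9:120571477-120571536, plus strand): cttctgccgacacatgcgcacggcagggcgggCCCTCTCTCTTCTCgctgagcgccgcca
Rps12 (chr10:23787190-23787249, minus strand): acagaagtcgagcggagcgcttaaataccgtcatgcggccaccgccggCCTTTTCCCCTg
Rpsa (chr9:120127726-120127785, plus strand): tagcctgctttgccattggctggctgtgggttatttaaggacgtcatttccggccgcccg
Rpl12 (chr2:32961672-32961731, plus strand): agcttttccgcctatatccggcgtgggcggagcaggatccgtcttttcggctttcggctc
Rps4x (chrX:102189372-102189431, minus strand): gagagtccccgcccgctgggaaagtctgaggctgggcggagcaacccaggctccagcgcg
Rps27l (chr9:66946046-66946105, plus strand): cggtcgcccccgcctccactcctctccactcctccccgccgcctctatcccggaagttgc
Rpl7a (chr2:26910767-26910826, plus strand): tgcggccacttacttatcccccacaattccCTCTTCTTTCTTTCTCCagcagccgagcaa
Rpl28 (chr7:4792925-4792984, plus strand): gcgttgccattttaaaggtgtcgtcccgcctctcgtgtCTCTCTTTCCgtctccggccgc
Rpl22l1 (chr3:28805468-28805527, plus strand): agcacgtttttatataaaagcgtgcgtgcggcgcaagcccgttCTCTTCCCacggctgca
Rpl24 (chr16:55966235-55966294, plus strand): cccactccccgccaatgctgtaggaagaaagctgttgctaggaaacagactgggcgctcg
Rpl26 (chr11:68901526-68901585, plus strand): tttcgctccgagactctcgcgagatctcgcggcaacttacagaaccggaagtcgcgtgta

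The cells of a condition had 52.3 to 99.04 M counts in all. The median cell held 328910 counts. The summed markers of each class were higher in that class than in those it was compared with, except that the N4d markers overlapped between N4d and IN (1838 to 3718 CPM in IN) and the N1d markers between N1d (4644 to 5868 CPM) and N4d (3622 to 4825 CPM). The 8 AP markers summed to 2439 to 6436 CPM (counts per M counts) in AP at 1 h and to 494 to 1106 CPM in N1d at 24 h, and the 6 N4d markers to 3069 to 5426 CPM in N4d at 96 h against 517 to 788 CPM in N1d at 24 h. The 6 IN markers reached 1536 to 2265 CPM in IN at 96 h and 79.1 to 214.9 CPM in N4d at 96 h. The cell names hold a code that is called the run here, without knowing which step of the work it stands for. Each such code held 1 collection time, so collection time and run cannot be told apart. One run held E12 with E13 and another E14 with E15 at each of 24 and 96 h, whereas at 1 h the pairs were E12 with E14 and E13 with E15. Classes of 1 collection time were therefore compared within the same runs.

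Ribosomal protein messengers made up 7.90% of all counts, and their share was highest in progenitors 1 h after labelling and lowest in neurons and astrocytes at 96 h. In AP at 1 h the share was 10.5, 12.5, 10.4 and 10.2% for E12 to E15 (mean 10.9 ± 1.10%, SD, n = 4). At 24 h it was 9.04 ± 0.693% in AP, 9.04 ± 1.14% in BP and 7.18 ± 0.432% in N1d (SD, n = 4 each). N1d neurons, at 6.61 to 7.64%, lay below every AP sum (lowest 8.13%) and every BP sum (lowest 7.87%) of the same collection time. At 96 h the share was 5.77, 6.82, 4.23 and 5.18% in N4d (mean 5.50 ± 1.09%) and 5.59 ± 0.392% in IN. N4d E13 lay inside the N1d range and the other 3 N4d sums lay below it. Neighbours in this order, AP and BP at 24 h and N4d and IN at 96 h, overlapped. The few astrocytes had 4.43% at E14 and 4.45% at E15. No test was run on these shares. A share of summed messenger counts does not separate fewer ribosomal protein messengers from more of everything else.

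**Figure D1:**
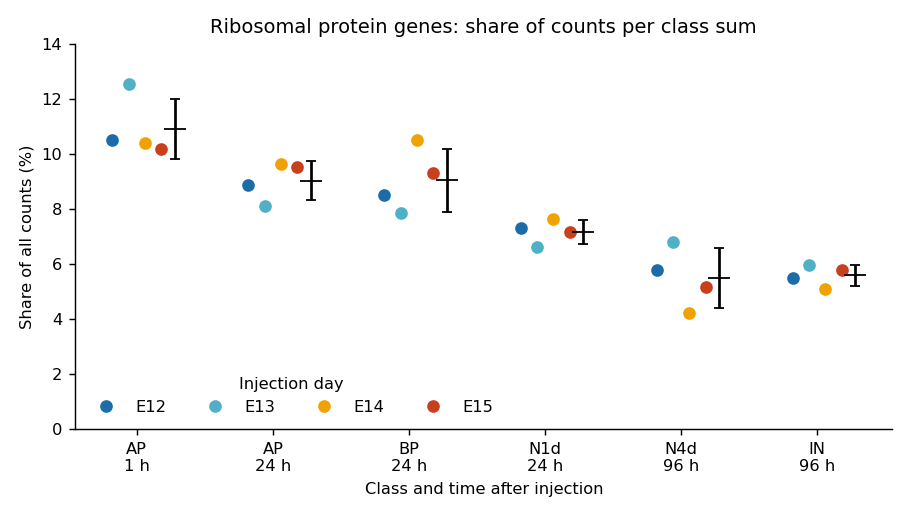
Share of all counts in ribosomal protein genes (%, y axis) per class sum, by class and collection time (x axis), 1 point per injection day, with mean ± SD over 4 days in black. AP at 1 h lie between 10.2 and 12.5%, N1d at 24 h between 6.61 and 7.64%, and N4d at 96 h between 4.23 and 6.82%.

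All 77 subunit and stalk genes were broadly detected, the least often detected one in 92.2% of cells. Per kb of transcript (GENCODE M21, 1 principal transcript per gene), the level over all cells ranged from 188.8 to 5989 CPM per kb with a median of 1086. Among the highest were Rps14 with 5989, Rpl41, which encodes a very short peptide at the subunit interface, with 4157, Rpl32 with 3789.5 and Rps29 with 2582 CPM per kb. Rpl24 was the lowest, at 188.8 CPM per kb. Levels far below that range were found among the extra copies and paralogs, which the annotation lists partly as processed pseudogenes. The symbols holding "-ps", which the rule leaves out, held 0.0912% of all counts.

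N1d neurons at 24 h were compared with AP at 1 h, the step from the labelled progenitor to its 1-day-old neuron. Of 86 members tested, 54 were lower in N1d and none was higher, beside 16% of all 10195 genes tested that were lower and 17.7% that were higher (edgeR quasi-likelihood test, adjusted p under 0.05 by Benjamini-Hochberg). The median log2 change was -0.60 over the members and -0.01 over all genes tested. All 3 stalk genes, 28 of 43 large subunit genes, 21 of 31 small subunit genes and 2 of 5 paralogs were lower. In 69 of the 86 members the N1d sum lay below the AP sum of the same day on all 4 days, which was so for 23.6% of all genes. Leaving out E15 left 25 members called, and the other single days 42 to 52, with the share of all genes in these smaller fits not counted.

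The largest decreases were in genes of both subunits, and leaving out any single day ended the call for none of the 6 largest. Rpsa (chr9:120127689-120132369, GRCm38), a small subunit protein also known as a laminin receptor, measured 2708, 2595, 2332 and 2091 CPM in AP for E12 to E15 and 931, 954, 1012 and 937 CPM in N1d. All 4 AP sums were more than double any N1d sum, and the log2 change was -1.34 ± 0.12 (SE; adjusted p = 9.92e-06). Rps12 (chr10:23785183-23787275) measured 848, 1117, 857 and 860.5 CPM in AP and 290.02, 324, 426 and 398 CPM in N1d. AP of E13 stood above the other AP days, the groups did not overlap, and the change was -1.37 ± 0.17 (SE; adjusted p = 9.01e-05). Rpl12 (chr2:32961559-32965345), which forms the base of the stalk, measured 859.8, 952, 884 and 876 CPM in AP and 389, 482, 358 and 286.1 CPM in N1d. Its AP values were close together and all above the N1d values, with a change of -1.25 ± 0.16 (SE; adjusted p = 1.62e-04).

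Rps4x (chrX:102184941-102189394), the X-linked gene of a small subunit protein, measured 3270.2, 4051, 3429 and 2999.8 CPM in AP and 1285, 1167, 1972 and 1853 CPM in N1d, a change of -1.15 ± 0.19 (SE; adjusted p = 7.67e-04). The N1d values fell into a lower pair (E12 and E13) and a higher pair (E14 and E15), which are the 2 runs. The acidic stalk proteins recruit translation factors to the large subunit. Rplp1 measured 1776, 2224, 1717 and 1526 CPM in AP and 1043, 885, 751 and 713 CPM in N1d (log2 change -1.11 ± 0.14, SE, adjusted p = 1.06e-04). Rplp0, the stalk's anchor, measured 1668, 2654, 1746 and 2207 CPM in AP and 1040.3, 972, 1396 and 1351 CPM in N1d (log2 change -0.81 ± 0.20, SE, adjusted p = 0.00983). Rplp2 measured 1576, 1621, 1138 and 1181 CPM in AP and 876, 805, 1085 and 920.4 CPM in N1d (log2 change -0.57 ± 0.15, SE, adjusted p = 0.0107). None of the stalk genes overlapped between the classes.

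Rps27l, a paralog of Rps27 and a known target of p53, was lower in N1d, with 624, 831, 713 and 574 CPM in AP and 339.6, 259.8, 312 and 350.1 CPM in N1d (log2 change -1.12 ± 0.20, SE, adjusted p = 0.00109). Its partner Rps27 did not pass the test, with a change of -0.52 ± 0.20 (adjusted p = 0.0659). Rpl22, a large subunit protein, and its paralog Rpl22l1 were both lower: Rpl22 measured 694, 787, 598 and 652 CPM in AP and 292.6, 272.3, 410.3 and 453 CPM in N1d (log2 change -0.96 ± 0.15, SE, adjusted p = 6.13e-04). Rpl22l1 measured 270.3, 434, 251.4 and 329 CPM in AP and 198.1, 166.8, 211.9 and 198.4 CPM in N1d (log2 change -0.73 ± 0.22, SE, adjusted p = 0.0226). Whether paralogs of a pair changed by different amounts was not tested. Rpl5 and Rpl11, which with 5S RNA can bind the p53 regulator Mdm2, changed by -1.04 ± 0.14 and -0.62 ± 0.15, both called.

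Among the 32 members that were not called was Rps14, the gene with the highest level per kb. It measured 3962, 4914, 4498 and 4157 CPM in AP and 5550.1, 4538, 3798 and 3904 CPM in N1d, overlapping ranges, with a change of 0.01 ± 0.17 (adjusted p = 0.984). Rpl7a measured 981, 1112, 908 and 1063 CPM in AP and 936, 1108, 878 and 814 CPM in N1d, a change of -0.13 ± 0.14 (adjusted p = 0.527). Rpl24 measured 137.2, 195.3, 196.2 and 190.9 CPM in AP and 203.8, 198.3, 84.6 and 91.2 CPM in N1d, a change of -0.41 ± 0.21 (adjusted p = 0.154). Rps6, the small subunit protein phosphorylated downstream of TOR, changed by -0.43 ± 0.19 (adjusted p = 0.106), without overlap between the groups. Rpl7l1, Rpl36al and Rps4l also missed the threshold, with changes of -0.28 ± 0.19, -0.34 ± 0.20 and 0.49 ± 0.69, while Rpl7, Rpl36a and Rps4x, their partners, were lower. Rps19bp1 changed by 0.53 ± 0.26 (adjusted p = 0.134).

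Genes outside the rule that make ribosomal proteins or accompany them were also read. Fau, the source of a small subunit protein, was lower (log2 change -0.68 ± 0.19, SE, adjusted p = 0.0169), as was Gnb2l1 (Rack1), a scaffold on the small subunit (log2 change -0.76 ± 0.16, SE, adjusted p = 0.00306). Of 20 other genes with TOP messengers, 8 were lower and 1 higher, with a median of -0.43. Pabpc1, the poly(A) binding protein, changed by -1.67 ± 0.12, Eef1d, an elongation factor subunit, by -1.81 ± 0.17, the histone chaperone gene Nap1l1 by -1.36 ± 0.13 and the nucleolar gene Npm1 by -1.21 ± 0.15. Of 64 ribosome biogenesis genes tested, 22 were lower and 2 higher (median -0.53). The called genes with the smallest p were Nop58, a core protein of small nucleolar ribonucleoproteins, at -0.97 ± 0.15, nucleolin (Ncl) at -1.03 ± 0.17, dyskerin (Dkc1) at -1.19 ± 0.20 and Heatr1 at -1.72 ± 0.34.

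Of 14 TOR and Myc regulators, 4 were higher and 1 lower (28.6 and 7.14%, beside 17.7 and 16% of all genes), with a median of 0.12. The lower one was Eif4ebp1, a repressor of cap-dependent translation that TOR inactivates, at -2.93 ± 0.54. Mycl changed by 1.40 ± 0.34, the S6 kinase gene Rps6kb2 by 1.33 ± 0.34 and Myc, at a low level in N1d, by 2.37 ± 0.74. Proteins of the mitochondrial ribosome are encoded by separate genes. Of 77 tested, 8 were lower and 3 higher, or 10.4 and 3.90%, both below the shares among all genes (16 and 17.7%), with a median of -0.12. Mrpl13 changed by -0.78 ± 0.18, Mrps14 by -0.74 ± 0.19, Mrpl41 by 0.78 ± 0.16 and Mrps10 by 0.66 ± 0.17.

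**Figure D2:**
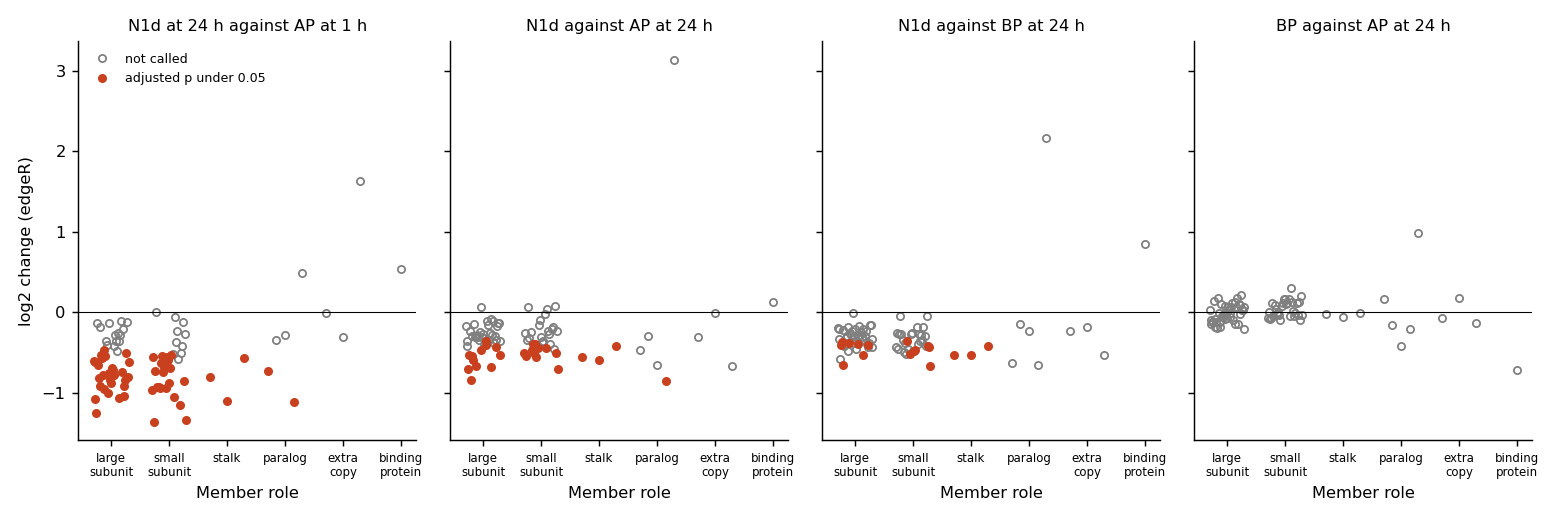
log2 change of each ribosomal protein gene (y axis) in 4 class comparisons, grouped by role (x axis); each point is 1 gene, filled where edgeR's adjusted p was under 0.05. Called genes, all below 0, number 54 for N1d at 24 h against AP at 1 h, 27 for N1d against AP at 24 h, 17 for N1d against BP and 0 for BP against AP.

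Collection time and run differ in that step, so the 3 classes of the 24 h samples were compared within condition. No member was called between BP and AP, 0 of 86, beside 1% of all 9969 genes tested, and the median log2 change was -0.01. At an unadjusted p under 0.05 there were 2 members, beside 12.3% of all genes. DESeq2 called 0 members, beside 6.98% of all genes. Rps28, a small subunit protein, had the smallest p of the members. It measured 1072, 815, 992 and 978 CPM in AP and 1092, 1076, 1373 and 1129 CPM in BP, without overlap, and its change of 0.30 ± 0.11 did not pass the test (adjusted p = 0.256). Rpsa measured 1345, 1682, 1705 and 1612 CPM in AP and 1347, 1487, 1594 and 1634 CPM in BP, overlapping ranges, with a change of -0.04 ± 0.08.

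N1d neurons were lower than both progenitor classes of the same samples. Against AP at 24 h, 27 members were lower and none higher, beside 5.65% of all genes that were lower and 5.39% that were higher, with a median of -0.33 over the members and 0.09 over all genes. Against BP, 17 members were lower and none higher, beside 2.3% of all genes that were lower and 1.14% that were higher, with medians of -0.34 and 0.06. The same 12 members were lower in both comparisons, which share the N1d sums, among them Rpl14, Rpl32, Rpl36a, Rpl41, the 3 stalk genes, Rps19, Rps20 and Rpsa. The share of all genes lower in both was not counted. In 72 of 86 members the N1d sum was below the BP sum of the same day in every day, and in 66 of 86 below the AP sum; among all genes these shares were 14.0 and 18.0%.

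Rpl14 (chr9:120571444-120574654), a large subunit protein, measured 1475, 1714, 1626 and 1698 CPM in AP, 1401, 1220.3, 1514 and 1494 CPM in BP and 949, 884, 883 and 883 CPM in N1d. No N1d sum reached any progenitor sum, and the changes were -0.84 ± 0.10 (SE; adjusted p = 3.77e-04) against AP and -0.65 ± 0.10 (SE; adjusted p = 0.00449) against BP. For Rpsa, with the progenitor values above, the N1d sums were 931, 954, 1012 and 937 CPM. They lay below all 8 progenitor sums, with changes of -0.71 ± 0.08 (SE; adjusted p = 4.33e-04) against AP and -0.67 ± 0.08 (SE; adjusted p = 0.00194) against BP. Rps27l had the largest change against AP, -0.86 ± 0.16 (SE; adjusted p = 0.00695), and -0.65 ± 0.16 against BP (adjusted p = 0.0575).

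Rpl12 and Rpl22 were lower against AP (-0.71 ± 0.19 and -0.67 ± 0.16) and did not pass the test against BP (-0.58 ± 0.19 and -0.48 ± 0.16); the difference between the 2 comparisons was not tested. The stalk genes gave similar values in both: Rplp1 -0.59 ± 0.11 and -0.54 ± 0.11, Rplp0 -0.56 ± 0.12 and -0.53 ± 0.12, Rplp2 -0.43 ± 0.10 and -0.42 ± 0.10. Rpl36a, a large subunit protein, changed by -0.68 ± 0.12 and -0.54 ± 0.12, and Rps20, a small subunit protein, by -0.44 ± 0.11 and -0.52 ± 0.12. Rps4x, among the largest changes between 1 and 24 h, was close between classes of 24 h, with 1497, 1333, 2297 and 2205 CPM in AP, 1538, 1340.3, 1981 and 2215 CPM in BP and the N1d values above. Its change against AP was -0.21 ± 0.08 (adjusted p = 0.128). The count against BP rested on every day: 2 members remained called without E12, 2 without E13, 2 without E14 and 1 without E15. Against AP, 11, 9, 19 and 5 were called without E12, E13, E14 and E15 in turn. For these smaller fits the share of all genes called was not counted. Rpsa kept its call against both classes without any single day, and so did Rpl14 except against BP without E15.

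**Figure D3:**
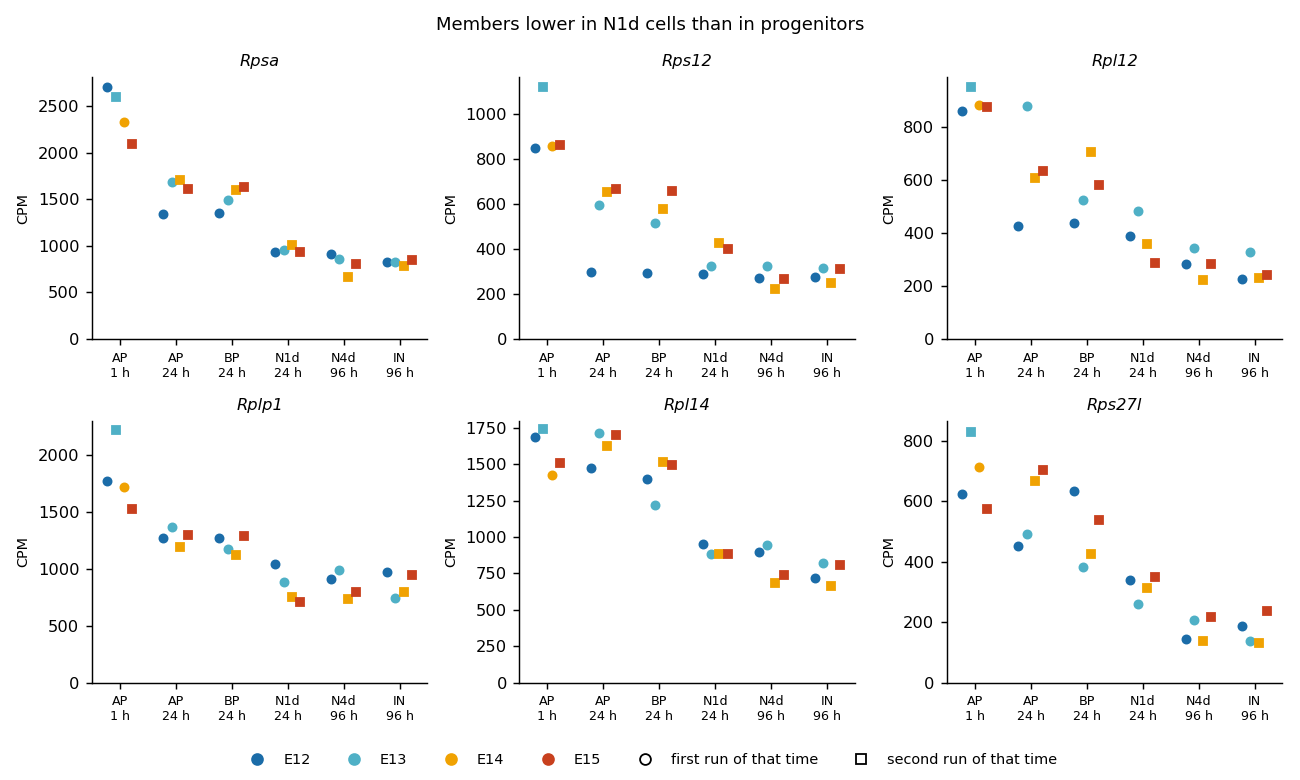
Counts per M (CPM, y axis) of 6 ribosomal protein genes in each class and collection time (x axis); colours are injection days and shapes the run within each collection time. Rpsa and Rpl14 lie lower in N1d at 24 h than in every AP and BP sum of 24 h, with Rpl14 at 883 to 949 CPM in N1d and 1475 to 1714 CPM in AP.

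Among genes outside the rule, Npm1 (-0.91 ± 0.12 against AP and -0.63 ± 0.12 against BP), Pabpc1 (-0.99 ± 0.14 and -0.73 ± 0.14) and Nap1l1 (-0.90 ± 0.13 and -0.89 ± 0.13) were lower in both comparisons within 24 h. Of the 20 TOP genes, 5 were lower and 2 higher against AP and 4 were lower against BP, Naca among them (-0.56 ± 0.12). Of 65 biogenesis genes, 6 were lower against AP (9.23%, beside 5.65% of all genes) and 1, Ncl, against BP (1.54%, beside 2.3%). Ncl changed by -0.79 ± 0.10 against AP and -0.50 ± 0.10 against BP. Dkc1 was the only biogenesis gene called between BP and AP, at -1.63 ± 0.28. Of the mitochondrial ribosomal protein genes, 6 of 77 were lower against AP (7.79%) and 2 against BP (2.60%), shares near those among all genes, both times with Mrpl42 (-0.79 ± 0.15 and -0.73 ± 0.15) and Mrpl54 (-0.99 ± 0.20 and -0.95 ± 0.20).

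AP at 24 h were also set beside AP at 1 h, the same class at 2 collection times and in different runs. No member was called, beside 0% of all 9346 genes tested, with a median of -0.27 over the members and -0.13 over all genes. At an unadjusted p under 0.05 there were 20 members, 19 of them lower at 24 h, beside 6.92% of all genes in either direction. DESeq2 called 5 members, all lower (Rpl5, Rps12, Rps15, Rps4x and Rpsa), beside 1.75% of all genes. Rps4x had a change of -0.94 ± 0.22 (adjusted p = 0.618 in edgeR), and its 4 sums at 24 h all lay below those at 1 h. The changes of Rpsa and Rps12 were -0.62 ± 0.16 and -0.80 ± 0.22, also without overlap, while Rpl14 changed by 0.03 ± 0.15.

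N4d neurons at 96 h were compared with N1d neurons at 24 h. Of 86 members, 21 were lower in N4d and 1, Rpl26, was higher. Among all 10195 genes, 9.84% were lower and 10.8% were higher. The members' median was -0.36, against -0.02 over all genes, and was uneven between days: -0.30 for E12, 0.04 for E13, -0.87 for E14 and -0.47 for E15. Of the 21, 13 belonged to the large subunit, 4 to the small subunit, 2 to the paralogs and 2 to the extra copies, and no stalk gene was called. The count of called members was 2 without E12, 37 without E13, 5 without E14 and 2 without E15. The share of all genes called in these smaller fits was not counted, so these shifts cannot be read as particular to the members. Rps14 and Rpl7a kept their calls without any single day; Rpl24 and Rpl28 lost theirs without E12 and without E15, and Rps27l and Rpl22l1 without E12, E14 or E15.

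Of all 86 members, 42 were called lower in the step from AP to N1d and not in this one, 9 in this one and not in the first, 12 in both and 23 in neither. Among all genes, 16% were lower in the first step and 9.84% in this one, and shares for the combined sets were not counted. Both steps share the N1d sums, and the difference between the steps was not tested, so the sets list calls and do not assign genes to a step. The 9 were Rpl4, Rpl7a, Rpl15, Rpl24, Rpl27, Rpl37rt, Rps3, Rps14 and Rps27rt. Among the 12 were Rpl5, Rpl10a, Rpl13a, Rpl22l1, Rpl23, Rpl28, Rps18, Rps20 and Rps27l.

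Rps14 measured 2172, 2588, 1332 and 1854 CPM in N4d, beside 5550.1, 4538, 3798 and 3904 CPM in N1d. All N4d sums lay below all N1d sums, and the change was -1.12 ± 0.17 (SE; adjusted p = 0.00132). Rpl24 (chr16:55966275-55971435), which bridges the subunits, measured 58.5, 75.9, 50.8 and 58.6 CPM in N4d, below every N1d value given above, a change of -1.11 ± 0.21 (SE; adjusted p = 0.0043). The N4d values of Rpl24 were close together, while its N1d values separated E12 and E13 from E14 and E15. Rpl28 (chr7:4792874-4795066) measured 966, 769, 761 and 801 CPM in N1d and 418, 537, 315 and 408 CPM in N4d (log2 change -0.94 ± 0.17, SE, adjusted p = 0.00343). It was also lower in N1d than in AP at 1 h, which measured 1299, 1672, 1432 and 1489 CPM (log2 change -0.84 ± 0.17, SE, adjusted p = 0.00263). In AP at 24 h the mean of Rpl28 was 1031 CPM, beside 1473 CPM in AP at 1 h. That change was -0.51 ± 0.15 (edgeR, adjusted p = 0.618), without overlap. Rpl7a measured 522, 584, 411 and 499 CPM in N4d (log2 change -0.85 ± 0.14, SE, adjusted p = 0.00244), without overlap.

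The paralogs Rps27l and Rpl22l1 were called lower in both steps. In N4d, Rps27l measured 144.02, 207.7, 137.1 and 216.9 CPM (log2 change -0.81 ± 0.19, SE, adjusted p = 0.0145) and Rpl22l1 measured 104.8, 135.2, 85.5 and 115.7 CPM (log2 change -0.78 ± 0.22, SE, adjusted p = 0.0274). Rps27 and Rpl22 did not pass the test in this step, with -0.21 ± 0.20 and -0.05 ± 0.15. Rpsa, with 912, 858, 662 and 806 CPM in N4d, changed by -0.21 ± 0.12 (adjusted p = 0.219), and the stalk gene Rplp1 by 0.06 ± 0.14. Rpl26 (chr11:68901583-68906989), a large subunit protein that lies near the peptide exit, measured 609, 381, 609 and 305 CPM in AP at 1 h, 284.9, 255.7, 202.8 and 202.8 CPM in N1d and 439, 526, 282.7 and 243.5 CPM in N4d. It was lower in N1d than in AP at 1 h (log2 change -1.00 ± 0.21, SE, adjusted p = 0.0039). AP at 24 h also lay below AP at 1 h in 4 of 4 days, with overlapping ranges (log2 change -0.70 ± 0.24, SE, edgeR adjusted p = 0.682). Against BP at 24 h, Rpl26 was not called lower in N1d. The part of collection time in the fall from AP at 1 h was not tested. Rpl26 was higher in N4d than in N1d in 4 of 4 days (log2 change 0.66 ± 0.21, SE, adjusted p = 0.0473), with E15 of N4d inside the N1d range. That last call was lost without any single day and with upper quartile scaling.

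Outside the rule, 4 of 20 TOP genes were lower and none higher: Hnrnpa1 (-0.52 ± 0.11), Eif3m (-0.71 ± 0.15), Eif3k (-0.58 ± 0.17) and Eef1d (-0.53 ± 0.17). Of 64 biogenesis genes, 4 were lower and 3 higher (6.25 and 4.69%, both below the 9.84 and 10.8% of all genes); nucleolin, lower in N1d than in AP, was higher in N4d than in N1d (0.62 ± 0.17), and Emg1 was lower (-0.63 ± 0.16). None of 14 TOR and Myc regulators was called. Of 77 mitochondrial ribosomal protein genes, 8 were lower and none higher; the lower ones were 10.4%, near the 9.84% of all genes, with Mrpl39 at -1.65 ± 0.30 and Mrpl4 at -0.99 ± 0.18. Gnb2l1 was lower (log2 change -0.62 ± 0.16, SE, adjusted p = 0.0175) and Fau was not called (0.01 ± 0.19).

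Cells of the N4d class differed widely in their ribosomal protein share, and depth and mitochondrial counts moved with it. N4d cells were split by this share into 4 equal groups, and those with the lowest had a median of 1.73% ribosomal protein counts, 182474 counts and 10.3% of counts in mitochondrially encoded genes. Those with the highest had 7.57%, 449425 counts and 4.12%. Over the 693 N4d cells, Spearman's rho with the share was 0.72 for counts per cell and -0.66 for mitochondrial counts, as a description of cells that share libraries. IN cells at 96 h (85, 44, 30 and 35 cells for E12 to E15) gave 0.57 and -0.42 and AP at 1 h 0.04 and 0.10 (715 cells). The mitochondrial share of the sums was 4.75, 4.76, 6.22 and 5.50% in N4d, E12 to E15, and 3.21 to 4.36% in N1d.

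With cells under 6% mitochondrial counts alone, a choice made after these values were seen, 18 members were lower in N4d than in N1d, all among the 21, beside 8.69% of all genes, and Rpl26 was higher, beside 7.95%. The median was -0.21. Rps14 then changed by -1.01 ± 0.14, Rpl24 by -0.98 ± 0.19, Rpl28 by -0.80 ± 0.14 and Rpl7a by -0.76 ± 0.12. N4d.early2, the N4d cluster with the highest share (6.65%, 327 cells), was then taken as the only N4d cells, also chosen afterwards. Of 86 members, 7 were lower, all among the 21, beside 8.83% of all genes. In that setting 6 were higher, beside 9.21%, and the median was -0.07. The lower ones were Rpl7a, Rpl13a, Rpl15, Rpl18, Rpl24, Rpl28 and Rps14, and the higher ones Rpl6, Rpl19, Rpl26, Rpl36a, Rplp1 and Rps4x. Rps14 changed by -0.88 ± 0.12 and Rps4x by 0.62 ± 0.15. That setting keeps the N4d cluster richest in these same genes, so its calls are a description and no test of the members.

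**Figure D4:**
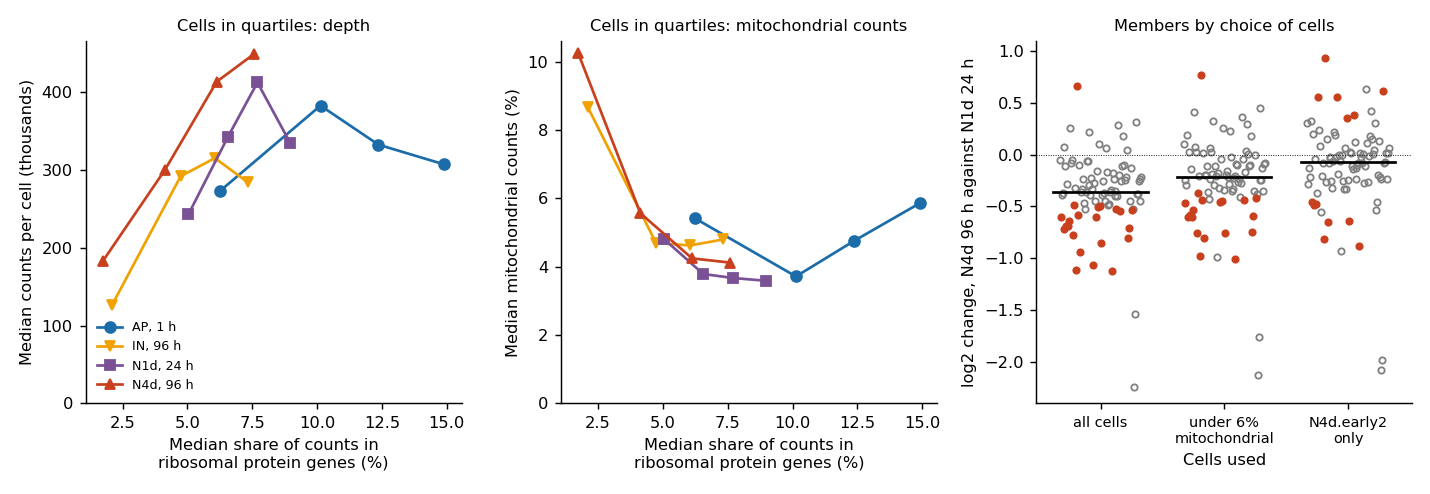
Left and middle, median counts per cell and median mitochondrial counts (%) against the median ribosomal protein share (%) of cells split into 4 groups of rising share, for 4 classes. Right, log2 change of each member in N4d at 96 h against N1d at 24 h by the cells used, filled where the adjusted p was under 0.05, with the median as a bar at -0.36, -0.21 and -0.07.

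Interneurons, which reach the cortex from another source, were compared with N4d neurons of the same samples. None of 84 members was called, beside 2.24% of all 9362 genes tested, with a median of 0.08 over the members and -0.10 over all genes. At an unadjusted p under 0.05 there were 2 members, beside 11.9% of all genes. DESeq2 called 1, Rps4x, beside 8.71%. Rps4x was higher in IN in 4 of 4 days (0.30 ± 0.12, adjusted p = 0.338 in edgeR). Rps14 measured 2048, 2776, 2055 and 1845 CPM in IN and Rpl26 369, 515, 352 and 295.7 CPM, both overlapping the N4d values (0.20 ± 0.14 and 0.12 ± 0.17).

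Several genes differed between collection times within a class as well. A few cells of each class were also found at another time than their typical one, which gave 6 pairs of the same class and injection day at 96 h and earlier, with 5 to 130 cells at 96 h. In every one of these pairs 16 members were lower at 96 h, beside 4.88% of all genes, and 2 members (Rpl26 and Rpl35a) were higher, beside 1.19%. Of the 21 members lower in N4d than in N1d, 6 were lower in every pair, Rps14, Rpl7a, Rpl28 and Rps20 among them. Rpl24 was not, and went from 91.2 to 94.4 CPM in N1d of E15. The members' median log2 change was -0.03 in AP of E13 and -0.08 and 0.04 in BP of E12 and E13. In N1d, IN and N4d of E15 it was -0.45, -0.51 and -0.47. The N1d sum of E15 at 24 h and the N4d sum of E15 at 96 h enter these pairs and also the comparison of N4d with N1d. Rps14 went from 4670 to 2978 CPM in AP of E13, from 5558 to 2666 CPM in BP of E12 and from 3904 to 2217 CPM in N1d of E15. In the same pairs Rpl26 went from 332 to 657, from 299.1 to 501 and from 202.8 to 337 CPM. Collection time and run cannot be told apart for these genes.

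**Figure D5:**
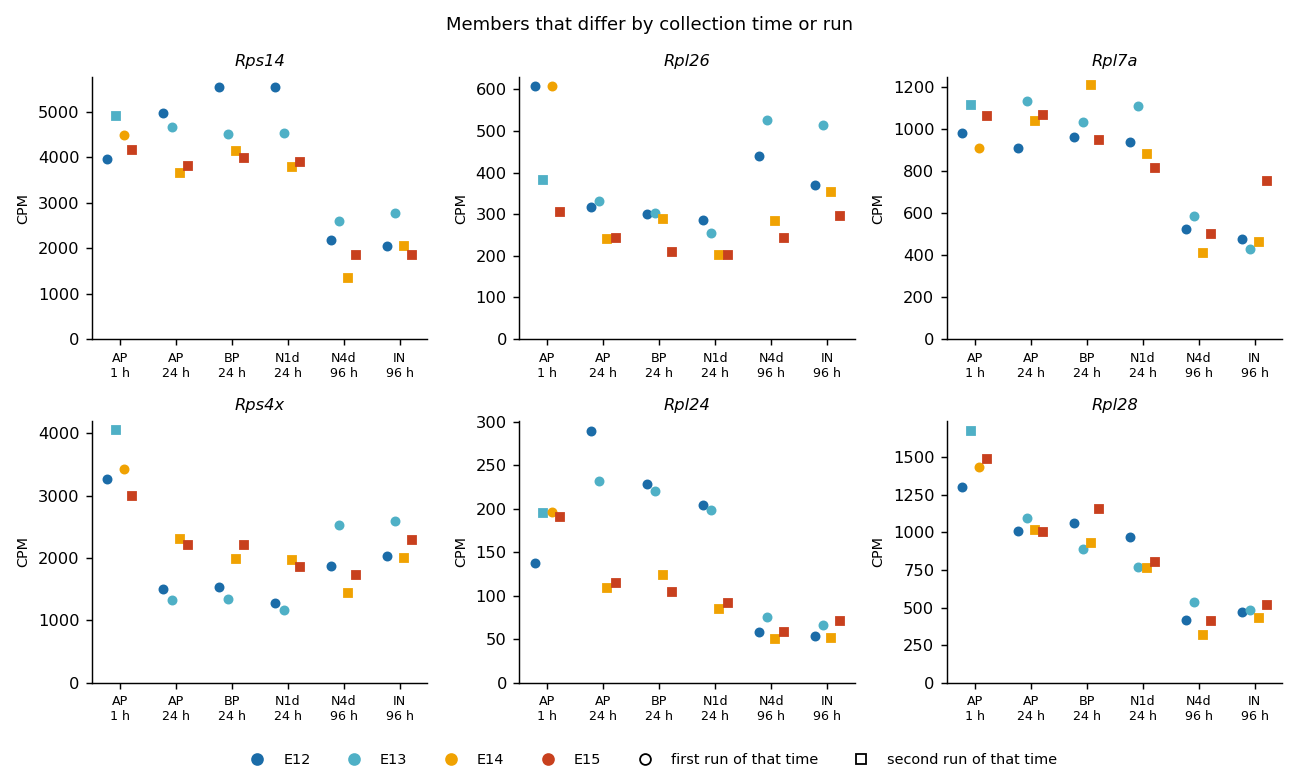
Counts per M (CPM, y axis) of 6 ribosomal protein genes in each class and collection time (x axis); colours are injection days and shapes the run within each collection time. Rps14 lies at 1332 to 2588 CPM in N4d and higher in every sum of 1 and 24 h, and Rpl24 and Rps4x at 24 h separate by run in all 3 classes.

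Members also separated the runs within a collection time. At 24 h, 9 members were higher in E12 and E13 than in E14 and E15 in AP, BP and N1d alike, without overlap, beside 3.99% of all genes, and 32 were lower, beside 2.72%. The 9 were Rpl13, Rpl15, Rpl23a, Rpl24, Rpl26, Rpl37rt, Rps10, Rps14 and Rps27rt; Rpl22, Rplp0, Rplp2, Rps12 and Rps4x were among the 32. Rpl24 measured 289.02, 231.8, 109.2 and 114.6 CPM in AP and 228.95, 220.5, 124.3 and 104.9 CPM in BP of 24 h, which repeats the split seen in N1d. At 24 h, run and early or late injection cannot be told apart. In N4d at 96 h, 62 members were higher in E12 and E13 and none lower, beside 17.4 and 24.1% of all genes. The mix of N4d clusters also differed between these days, and its part in this split was not tested. In IN of the same runs the counts were 15 and 8 of 86, beside 17.9 and 15.9%.

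At 1 h, where runs alternate with injection day, 3 members of AP were higher in E12 and E14 than in E13 and E15 (Rpl5, Rpl26 and Rps3a3), beside 15.7% of all genes, and 25 were lower, beside 16.1%. Rpl26, with its AP values above, was nearly equal in E12 and E14 and lower in E13 and E15.

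Injection day was then read as a straight line within the AP of 1 h, the N1d of 24 h and the N4d of 96 h, the question being whether the ribosomal protein messengers drift as neurogenesis proceeds. No slope of any member passed the test. The median slope, in log2 units per day, was -0.05 in AP, 0.01 in N1d and -0.13 in N4d. With the run as a block, the N4d median became 0.29. In AP, 0 members were called beside 1.03% of all 10195 genes; at an unadjusted p under 0.05 there were 2 beside 10.2%, and DESeq2 called 1, Rps3a3, beside 3.36%. In N1d, 0 were called beside 0.383%; 8 were under 0.05 unadjusted beside 12.9%, and DESeq2 called 1, Rpl24, beside 3.79%. In N4d, 0 were called beside 0.049%; 6 were under 0.05 unadjusted beside 7.81%, and DESeq2 called 0 beside 1.63%.

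For the mean of the 3 slopes, 0 members were called beside 1.01% of all genes; 9 were under 0.05 unadjusted, all negative, beside 15.3%, and DESeq2 called 4 (Rpl4, Rpl26, Rps2 and Rps3a3) beside 5.73%. Rps2, a small subunit protein near the messenger entry, had the smallest adjusted p among the members in edgeR, with a mean slope of -0.21 ± 0.05 per day (adjusted p = 0.0587). For the difference between the slopes, 0 were called beside 0.226%; 3 were under 0.05 unadjusted beside 9.82%, and DESeq2 called 0 beside 2.81%. Rps3a3, annotated as a processed pseudogene of Rps3a1, had the steepest values. It measured 737, 1.31, 6.19 and 0.714 CPM in AP, 43.4, 84.1, 81.9 and 2.34 CPM in N1d and 276.3, 0.825, 1.28 and 1.53 CPM in N4d.

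At 1 and 96 h Rps3a3 was high in E12 alone, and at 24 h it was low in E15 alone. Rps3a1, the intact gene, measured 1047, 1697, 1542 and 1516 CPM in AP at 1 h and 475, 958, 522 and 666 CPM in N4d, the lowest in E12 each time. Reads of near-identical copies can be split between them by alignment, so both levels are uncertain, as are those of Rps27rt and Rpl37rt beside Rps27 and Rpl37. At 24 h Rps27rt and Rpl37rt were higher in E12 and E13 than in E14 and E15 in all 3 classes, while Rps27 and Rpl37 were lower.

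Within classes, the authors' clusters differed in these genes; since the clusters were made from the same cells, this is a description. In AP at 1 h, 80 of 85 members were higher in AP.mid1 than in AP.mid2 on each of E13, E14 and E15, beside 14.5% of all genes, and 77 of 84 were higher than in AP.late, beside 13.4%. The ribosomal protein share of AP.mid1 was 14.1, 12.2 and 13.0% on these days and that of AP.mid2 was 11.0, 8.69 and 8.24%. At 24 h, 49 of 85 members were higher in BP.late than in BP.early, beside 15.7%, and 17 of 86 were lower in N1d.late than in N1d.early, beside 12.4%. At 96 h, 73 of 84 were lower in N4d.late2 than in N4d.early2 on all 4 days, beside 13.3%; the shares were 3.59, 5.58, 3.25 and 4.65% in N4d.late2 and 6.68, 7.20, 5.68 and 5.74% in N4d.early2. N4d.late2 cells had a median of 210702 counts and N4d.early2 cells 435726. Mitochondrial counts for E12 to E15 were 7.61, 6.74, 7.56 and 6.59% in N4d.late2 and 3.90, 4.30, 4.55 and 4.58% in N4d.early2. With cells under 6% mitochondrial counts alone, the shares lay closer together. They were then 5.63, 6.49, 4.63 and 5.72% in N4d.late2 and 6.78, 7.30, 5.71 and 5.82% in N4d.early2. The part of depth and mitochondrial counts in the result was not tested.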

How the data were processed

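RNA of single mouse cortical cells was read from 1 deposited table of whole-number counts, which the authors did not normalize. The submitters' processing notes name GRCm38, TopHat2 2.0.13 and UMI-tools without their roles; the counter, the annotation used for counting and the filters are not given in the sources used here. The column totals matched the read number in the labels (ratios 0.987 to 1), so the counts are reads. Each cell's injection day, collection time and cluster come from the labels. The members and all lists were chosen with earlier results of these data known.

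Counts were summed by class and condition where at least 5 cells were present and given as CPM. Genes with at least 10 CPM in at least 3 sums were tested with edgeR 4.0.16 (TMM, quasi-likelihood test, Benjamini-Hochberg adjustment, threshold 0.05) in R 4.3.3. One fit held the AP of 1 h, the N1d of 24 h and the N4d of 96 h, with a level and a slope on injection day per class; others held AP, BP and N1d at 24 h, N4d and IN at 96 h, and AP at 1 and 24 h, each with injection day as a factor. The common coefficient of variation was 46.3 to 73.5%. Rps12l2 and Rps3a2 were too low to test, and Rps3a3 and Rps4l too in the comparison of IN and N4d. SE is the log2 change divided by the square root of F. Cluster pairs and pairs of times used log2(CPM + 0.5). DESeq2 1.42.0, other scalings, other filters, single sums left out and other cell choices were alternatives. The test code was checked on simulated data, with changes placed in genes drawn from all those tested. Changes of 1 log2 unit were recovered in 19% of genes for N1d against AP at 1 h. For BP against AP, IN against N4d and AP at 24 h against 1 h this was 5, 22 and 4%. Changes of 2 log2 units were recovered in 68, 31, 56 and 33% in the same order. A comparison without called members therefore does not show equal levels. Named were up to 6 members per comparison and direction with the largest change among those called with a mean of at least 50 CPM, the paralog pairs, the stalk genes, Rpsa, Rps6, Rpl5, Rpl11, Rps27a, the extremes per kb, Fau, Gnb2l1 and up to 4 genes of each other list by smallest p. Rps3a1, Rps3a3, Rpl35a, Rps28, Rps2 and members printed by count were named after their values were seen. Some named genes are not reported here. Sums and tables used pandas 2.3.3, numpy 2.4.6 and scipy 1.17.1 under Python 3.11.15, and figures matplotlib 3.10.9.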

Additional observations from a re-analysis of the deposited data

Results flagged for a closer look

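A sample that stood apart from the other 3 injection days of its group, with a gap to the nearest day of more than 0.829 of the group's range, was looked for in 57 groups of 4 sums, and 4 were found. Chance alone marks about 1 group in 20. In AP at 1 h, E13 had the highest share of counts in ribosomal protein genes (12.5%), with a gap of 0.864 of the range. In the same sum Rps12 stood above the other days, with a gap of 0.954. In AP at 1 h, Rpl24 of E12 was lowest, with a gap of 0.910, and in N1d at 24 h Rpl14 of E12 was highest, with a gap of 0.986. For Rpl14 the 4 values were nonetheless close together, at 949, 884, 883 and 883 CPM.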

How the results depend on the processing

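No paired analysis was possible by replicate number because the labels number cells and not samples. Injection day, which pairs the classes of a condition, was itself the block in the fits within 24 h, within 96 h and of AP, and a slope in the fit of AP, N1d and N4d. In the 4 comparisons with called members, the count was within 1.5 times its main value in 34 of 57 alternatives, above it in 5 and below it in 18. In the 8 comparisons without a call, where the count cannot fall, it rose in 8 alternatives and stayed at 0 in the others. For none of the members named by size of change did an alternative reverse the direction: over 25 such results, 290 of 357 alternatives kept the call and 67 lost it. For N4d at 96 h against N1d at 24 h, 22 members were called, 34 with each cell scaled to the same total, 39 with sums over all lineage cells and 13 with N4d.early2 alone. For N1d against BP, 17 were called, 5 with upper quartile scaling, 39 with DESeq2, 5 with no filter on low counts, 4 with equal weight per cell, 3 with at least 10 cells per sum and 9 with cells under 6% mitochondrial counts. For N1d against AP at 24 h, 27 were called, 47 with DESeq2 and 15 with no filter. DESeq2 also called 5 for AP at 24 h against AP at 1 h, 1 for IN against N4d, 1 for the slope in AP, 1 for that in N1d and 4 for the mean slope, for which cells under 6% mitochondrial counts and N4d.early2 alone gave 1 each; edgeR called 0 in these. Leaving out 1 injection day gave 25 to 52 members for N1d against AP at 1 h (54 with all sums), 2 to 37 for N4d against N1d, 1 to 2 for N1d against BP, 5 to 19 for N1d against AP at 24 h and 0 to 1 for the mean slope. For most of these alternatives the share of all genes called was not counted, so the shifts cannot be read as particular to the members. The cause of these shifts was not tested. The ribosomal protein share moved by less than 1 SD in 48 of 48 alternatives. Leaving out 1 of 4 days cannot move a mean by 1 SD, so those alternatives could not come out otherwise. With cells under 6% mitochondrial counts alone, the mean share was 6.15% in N4d (5.50 ± 1.09% with all cells, SD). In IN at 96 h it was then 5.97% (5.59 ± 0.392% with all cells, SD).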
